A study of Mus musculus with 32 samples.

Results

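In CUT&Tag of mouse HoxB8 progenitors, 42488 of the 52841 autosomal peaks found with an IgG control antibody (80.4%) shared not a single base pair with any peak of 30 libraries made with histone mark antibodies. They are called unmarked IgG peaks here. The IgG list held 53972 peaks in all, sex chromosomes included. Of the remaining autosomal IgG peaks, 2971 overlapped an H3K4me1 peak of at least 1 library, and 7382 overlapped H3K27me3 or H2AK119ub but not H3K4me1 and are called Polycomb-only. The members were thus chosen by measured overlap, so the absence of marks at them is the selection and not a result.

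CUT&Tag tethers a fusion of protein A and the transposase Tn5 to an antibody bound in permeabilised nuclei, and the transposase cuts and tags the DNA beside it. An IgG antibody has no chromatin target, so its library records where the transposase cuts without guidance, which is known to include open chromatin such as active promoters, and where reads pile up in repeated sequence. H3K4me1 lies at enhancers and on the flanks of promoters, while H3K27me3 and H2AK119ub are deposited by the 2 Polycomb repressive complexes at silent genes.

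The cells were mouse bone-marrow progenitors immortalised by an estrogen-dependent HoxB8 and sampled 48 h after estrogen was taken away. Every mark had 2 control libraries (sgRNA non targetting with pMICH-Empty), 3 with the Asxl1 guide sgB2 and pMICH-Empty, 3 in which CSF3R T618I, an activated G-CSF receptor, joined the non-targeting guide, and 2 with guide and receptor mutant together, called double. The IgG list merged 2 libraries, 1 from Asxl1 guide cells and 1 from CSF3R T618I cells, so it has no replicates, holds no control or double cells, and its genotypes cannot be told apart. All cells share the HoxB8 line, a single guide stood for the Asxl1 edit, and the labels do not say whether libraries of a group came from separate cultures, so p-values measure the spread between libraries, which may be technical. The deposited files are peak positions in bp on mm10, with no height, score or read count, and the depth of every library is unknown, as is the depth of the IgG libraries that set how many peaks were found. Peak lists of the marks held 6071 to 45373 peaks. The myeloid identity on the labels was checked with H3K4me1 in or within 5 kb of marker genes: 11 of 15 myeloid progenitor genes had it in all 10 libraries and none lacked it in every library, whereas 8 of 8 liver, neural and muscle genes, 6 of 8 lymphoid genes, 4 of 5 stromal genes and 3 of 6 erythroid and megakaryocyte genes had it in none. Other members went the other way. Lymphoid Ebf1 had it in all 10 libraries and Cd79a in 6, and stromal Col1a1 in 7. Of the erythroid and megakaryocyte genes, Pf4 had it in 6, Klf1 in 5 and Itga2b in 1. The lowest myeloid gene, Flt3, had it in 2.

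Sequence could be read only at promoters, which hold a small part of these peaks; the sequence of peaks away from promoter windows was not analysed here. The 250 bases before the transcription start site are printed for 8 genes, taken from RefSeq (GRCm38.p6, the assembly behind mm10) on the strand of the gene, 5′ to 3′. Eif5b is the one of the 6 promoters most covered by an unmarked peak, taken in chromosome order, whose sequence lies outside every annotated gene. The other 7 belong to the gene groups described further on, and Vmn1r15, a pheromone receptor, is shown as the AT-rich contrast. Capitals mark the GC box GGGCGG, the CCAAT box and the ETS motif CCGGAAG, each on either strand, and adjoining motifs run together.
Eif5b: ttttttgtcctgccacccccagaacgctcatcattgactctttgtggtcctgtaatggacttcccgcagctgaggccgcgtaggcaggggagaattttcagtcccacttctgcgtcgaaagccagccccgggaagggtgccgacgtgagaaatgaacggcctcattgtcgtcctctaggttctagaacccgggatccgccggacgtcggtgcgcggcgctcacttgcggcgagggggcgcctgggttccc
Rps21: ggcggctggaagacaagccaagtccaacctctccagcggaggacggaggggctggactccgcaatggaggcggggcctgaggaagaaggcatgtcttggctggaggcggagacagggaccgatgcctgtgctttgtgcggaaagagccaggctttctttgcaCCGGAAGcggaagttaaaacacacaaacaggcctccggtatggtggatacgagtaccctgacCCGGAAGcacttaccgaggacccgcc
Rpl14: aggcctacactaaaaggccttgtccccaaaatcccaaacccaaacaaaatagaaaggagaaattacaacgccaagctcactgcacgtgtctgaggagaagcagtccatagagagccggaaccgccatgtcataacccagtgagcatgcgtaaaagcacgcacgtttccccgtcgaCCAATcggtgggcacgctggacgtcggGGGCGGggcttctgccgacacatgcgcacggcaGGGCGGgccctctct
Mrpl17: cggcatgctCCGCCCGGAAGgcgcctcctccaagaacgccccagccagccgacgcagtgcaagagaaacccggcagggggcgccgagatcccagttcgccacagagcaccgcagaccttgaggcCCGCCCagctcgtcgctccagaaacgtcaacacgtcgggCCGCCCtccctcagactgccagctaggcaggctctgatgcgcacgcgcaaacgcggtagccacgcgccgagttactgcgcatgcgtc
Psme3: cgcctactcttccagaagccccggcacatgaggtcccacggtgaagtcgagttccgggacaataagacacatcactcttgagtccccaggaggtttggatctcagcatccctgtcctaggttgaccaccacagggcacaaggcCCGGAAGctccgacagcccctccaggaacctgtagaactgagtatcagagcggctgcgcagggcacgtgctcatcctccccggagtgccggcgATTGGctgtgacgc
H2ac18: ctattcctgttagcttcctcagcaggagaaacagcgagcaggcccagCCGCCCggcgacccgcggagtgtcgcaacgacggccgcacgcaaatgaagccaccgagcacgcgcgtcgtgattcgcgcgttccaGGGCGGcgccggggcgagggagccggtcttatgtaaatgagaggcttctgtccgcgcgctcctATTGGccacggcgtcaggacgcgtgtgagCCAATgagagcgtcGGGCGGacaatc
H2ac24: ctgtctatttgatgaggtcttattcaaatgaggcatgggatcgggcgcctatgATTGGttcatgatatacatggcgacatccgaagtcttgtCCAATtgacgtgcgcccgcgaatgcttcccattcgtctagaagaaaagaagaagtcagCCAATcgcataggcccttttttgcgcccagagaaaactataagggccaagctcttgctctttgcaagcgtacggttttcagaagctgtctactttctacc
Vmn1r15: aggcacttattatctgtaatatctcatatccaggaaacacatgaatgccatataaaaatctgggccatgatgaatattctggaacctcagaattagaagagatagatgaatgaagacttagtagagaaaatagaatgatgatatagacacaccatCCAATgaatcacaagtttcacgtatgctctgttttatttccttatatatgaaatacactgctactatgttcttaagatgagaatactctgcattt
The Eif5b sequence (chr1:37997760-37998009, plus strand) holds 61.2% GC and none of the marked motifs, and lies wholly in a 1350 bp peak. Rps21 (chr2:180257129-180257378, plus) has 2 ETS motifs under a 1100 bp peak, Rpl14 (chr9:120571267-120571516, plus) has 2 GC boxes and 1 CCAAT box at a 450 bp peak, and Mrpl17 (chr7:105811088-105811337, minus) has 3 GC boxes and 1 ETS motif at a 550 bp peak. Psme3 (chr11:101315963-101316212, plus) has 1 CCAAT box and 1 ETS motif. Among the histone genes, H2ac18 (chr3:96245247-96245496, plus) has 3 GC boxes and 2 CCAAT boxes, and H2ac24 (chr13:21833476-21833725, minus) has 3 CCAAT boxes with only 47.2% GC. At H2ac18 and Rpl14 the peak covers only part of the printed bases, and the first 2 GC boxes of H2ac18 lie outside its peak. Vmn1r15 (chr6:57257899-57258148, plus) has 32.8% GC and 1 CCAAT box. A match is a string of letters and says nothing about binding.

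Unmarked IgG peaks were short. Their median width was 250 bp (quartiles 200 to 350 bp), 26.5% had the smallest width in the files, 200 bp, and 82.8% were at most 350 bp wide. Only 2288 (5.39%) reached 1000 bp. All 42488 together covered 15.2 Mb, or 0.633% of the autosomes. IgG peaks with H3K4me1 had a median of 300 bp (250 to 400 bp) and 10.3% reached 1000 bp, and Polycomb-only peaks had a median of 300 bp (250 to 600 bp) and 16.5%. Width is tied to the selection, since a wide peak meets a mark peak more easily: the share of IgG peaks that were unmarked was 85.5% at 200 bp, 82.9% at 250 to 350 bp, 71.6% at 400 to 950 bp and 60.1% from 1000 bp. These differences, and all others between the classes, are descriptions with no test, because the peaks come from 1 merged list and are not replicates; the 95% Wilson intervals given below cover counting error only.

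**Figure D1:**
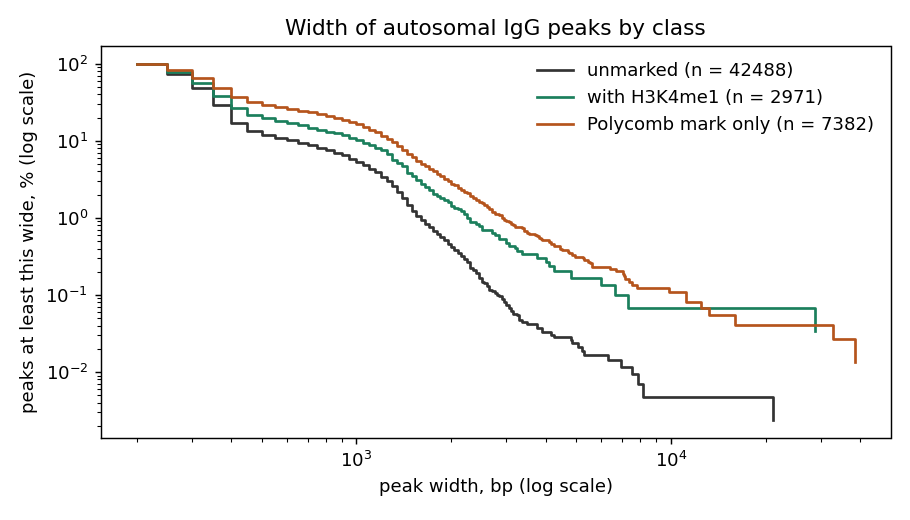
Share of peaks (%, log scale) at least as wide as the value on the x axis (bp, log scale), for the 3 classes of autosomal IgG peak. The curve of the unmarked peaks lies below the others from 250 bp on, with 5.39% of them at 1000 bp or more against 10.3% of peaks with H3K4me1 and 16.5% of Polycomb-only peaks.

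The boundary of the selection was sharp for most peaks but rests on thin evidence for others. Of the 10353 marked IgG peaks, 7304 (70.5%) were wholly covered by mark peaks, 879 shared at most 50 bp, and 2650 (25.6%) were met by 1 of the 30 libraries only. On the other side, 647 unmarked peaks touched a mark peak end to end, and 1270, these included, lay within 50 bp of one. H3K4me1 met 2971 IgG peaks (5.62%), 1029 of them in all 10 libraries, H3K27me3 met 4912 (9.30%), 403 in all 10, and H2AK119ub met 5637 (10.7%), 689 in all 10. The median distance from an unmarked peak to the nearest peak of any mark library was 8.05 kb (quartiles 2.00 to 31.7 kb). To the nearest peak in any of the 10 libraries of a mark it was 84.7 kb for H3K4me1, 26.1 kb for H3K27me3 and 23.9 kb for H2AK119ub. For H3K27me3 the pooled value leans on 1 Asxl1 guide library. Of the 9456 unmarked peaks within 5 kb of any H3K27me3 peak, 7832 were within 5 kb of a peak of that library. More than 100 kb from every mark peak lay 4905 of them (11.54%).

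Against genes, unmarked peaks were more often at gene ends and start sites than the genome is, and less often there than marked IgG peaks. By peak midpoint, 2377 (5.59%, interval 5.38 to 5.82) lay within 1 kb of an end of a protein-coding gene, where 3.10% of autosomal base pairs lie. IgG peaks with H3K4me1 gave 6.80% (5.95 to 7.76) and Polycomb-only peaks 13.4% (12.6 to 14.2). Inside protein-coding genes lay 50.5% of unmarked peaks, 62.4% of those with H3K4me1, 57.8% of Polycomb-only peaks and 40.9% of base pairs. The widest contrast was far from protein-coding genes: 10631 unmarked peaks (25.02%) were more than 50 kb from any of them, against 8.35% with H3K4me1, 9.56% of Polycomb-only peaks and 34.9% of base pairs. The gene-end contrast with H3K4me1 did not run one way at every width. Unmarked peaks of 200 bp lay at gene ends in 4.48% of cases and those with H3K4me1 in 4.75%, at 250 to 350 bp the shares were 5.21% and 6.96%, at 400 to 950 bp 9.93% and 8.06%, and from 1000 bp 5.59% and 8.17%. Inside genes the unmarked share was the lower one at each of these widths, from 48.5% against 64.5% at 200 bp to 54.8% against 69.0% from 1000 bp.

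Around transcription start sites, which could be placed with strand on 18 autosomes (all but chromosome 18), the unmarked peaks formed a narrow summit. In the 250 bp before the start their midpoints were 4.51 times as dense as the class is over the autosomes, and in the 250 bp after it 4.15 times. The next bins held 2.30 times upstream and 1.90 times downstream, and the density was back at 1.06 times 750 to 1000 bp upstream and 1.01 times as far downstream. Peaks with H3K4me1 had 4.92 and 4.72 times in the central bins but stayed between 1.33 and 2.97 times from 500 to 1750 bp on either side. Polycomb-only peaks reached 9.32 times just before the start. In all, 1416 of 41001 unmarked peaks (3.45%) had their midpoint within 500 bp of a start site, against 1.19% of base pairs, 4.24% of peaks with H3K4me1 and 7.96% of Polycomb-only peaks.

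**Figure D2:**
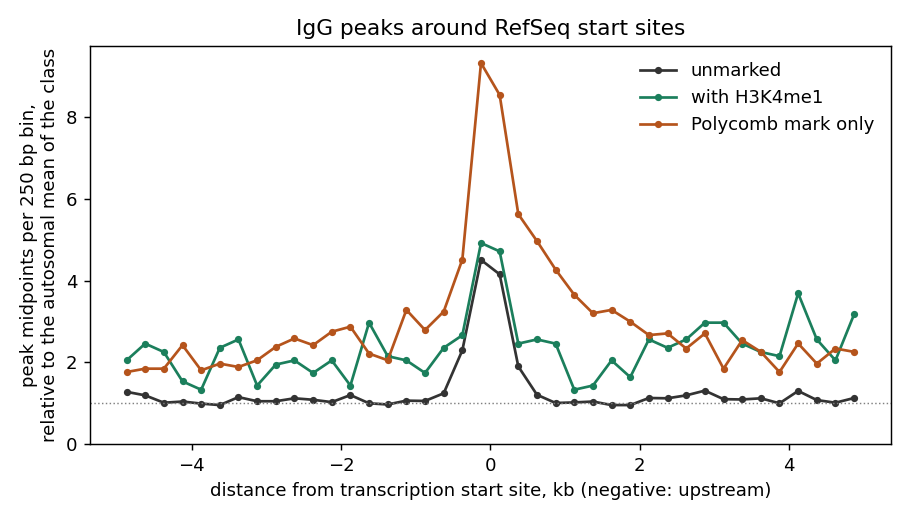
Density of IgG peak midpoints in 250 bp bins by distance from RefSeq start sites (kb, negative upstream), relative to the mean density of the same class over the autosomes; the dotted line marks 1. Unmarked peaks rise to 4.51 in the bin before the start and are near 1 beyond 750 bp, while the other classes stay above 1 across the window.

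The promoters that unmarked peaks met were rich in GC and CpG. Of 20063 promoter windows of protein-coding genes (250 bases before to 50 after the start), 1173 met an unmarked peak and no other IgG peak, and 187 lay wholly inside an unmarked peak. Their median GC content was 62.0% (quartiles 56.3% to 67.7%), against 57.7% for 93 promoters with an H3K4me1-marked IgG peak, 64.7% for 441 with a Polycomb-only peak and 57.0% for all promoters. The ratio of observed to expected CpG, which is low where methylated cytosines have been lost over evolution, had a median of 0.80 at unmarked peaks, 0.48 with H3K4me1, 0.71 at Polycomb-only peaks and 0.59 over all. Among promoters under 40% GC, 6 of 1756 (0.342%) met an unmarked peak, and the share was 2.42% at 40 to 50% GC, 5.78% at 50 to 60%, 9.42% at 60 to 70% and 7.32% from 70%.

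**Figure D3:**
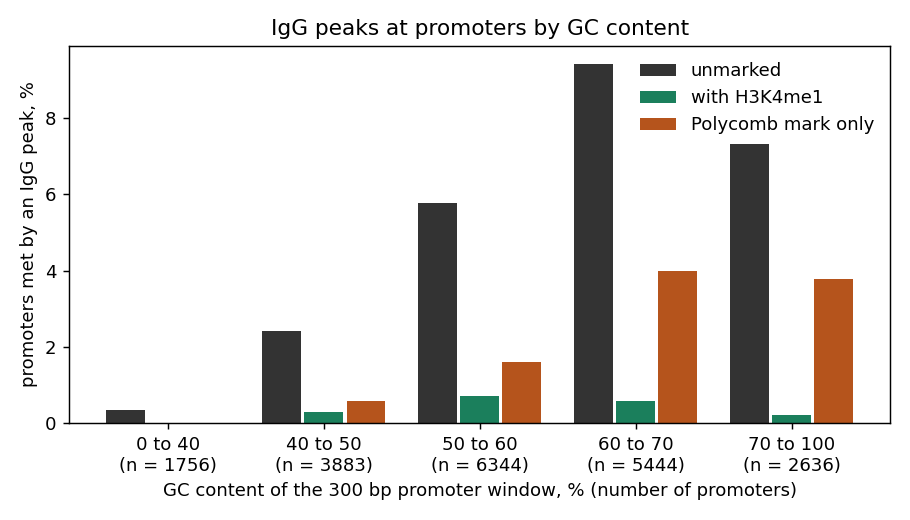
Share of protein-coding promoter windows (%) met by an IgG peak of each class, by GC content of the 300 bp window (%), with the number of promoters under each range. The unmarked bars climb from 0.342% under 40% GC to 9.42% at 60 to 70% and are the tallest in each range. Bar heights of the classes also follow class size, with 42488 unmarked peaks, 2971 with H3K4me1 and 7382 Polycomb-only.

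Short motifs of broadly active promoters were more frequent there as well. The ETS motif CCGGAAG, bound by GABPA and related factors, stood in 21.7% of promoters with an unmarked peak against 11.9% of all, 8.60% with H3K4me1 and 8.62% with a Polycomb-only peak. The GC box GGGCGG, bound by SP1, stood in 66.8% against 47.0% of all and 70.7% with a Polycomb-only peak, and the CCAAT box, bound by NF-Y, in 44.2% against 38.1%. The NRF1 motif stood in 2.39% against 1.34%, and the CTCF core motif in 4.94% against 3.79% of all and 5.44% with a Polycomb-only peak. GAGGAAGT, a form of the motif of the myeloid factor PU.1, was as frequent under unmarked peaks (3.32%) as over all promoters (3.18%), and stood in 10 of the 93 promoters with H3K4me1 (10.8%). All were searched on both strands, and the GC content of the windows moves with these shares. Among promoters of at least 60% GC, the ETS motif stood in 25.4% of the 706 with an unmarked peak and 17.4% of all 8080, the CCAAT box in 42.2% and 32.6%, the GC box in 84.6% and 82.1%, and the CTCF core motif in 6.37% and 6.23%.

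Ribosomal protein genes, genes of the mitochondrial ribosome and histone genes held these peaks at their ends more often than genes at large. Over all 20665 protein-coding genes, 2919 (14.1%) had an unmarked peak within 1 kb of either end, and 247 (1.20%) had an IgG peak with H3K4me1. Replication-dependent histone genes, which package newly copied DNA, had one at 27 of 67 (40.3%) and none with H3K4me1. Their genes stand close together, and the 27 shared 18 peaks: H4c18 and H2ac24 lie in the same 2250 bp peak (chr13:21832001-21834250), and H2ac18 and H3c14 share one of 1150 bp (chr3:96245401-96246550). Ribosomal protein genes had one at 21 of 81 (25.9%) and H3K4me1-marked ones at 1, and genes for the mitochondrial ribosome at 20 of 78 (25.6%) and 0. The widest at ribosomal genes were 1100 bp over the start of Rps21, 950 bp over Rps12, 850 bp over Rpl37 and 450 bp over Rpl14, and at mitochondrial ribosome genes 1200 bp past one end of Mrpl30, 900 bp beside Mrpl41, 850 bp at Mrpl18 and 550 bp over Mrpl17. Translation initiation factors had one at 12 of 53 (22.6%), 8.52 points above all genes, which is less than the counting error of 11.3 points on that share. Among them were Eif5b (1350 bp), Eif5a (650 bp), Eif4g2 (400 bp) and Eif2b2 (400 bp, 6.42 kb from its start and thus at the other end).

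Other groups were near the level of all genes or below it. Proteasome genes had an unmarked peak at 8 of 50 (16.0%), including Psme3 (550 bp) and Psmg4 (450 bp), zinc-finger genes at 60 of 388 (15.5%), with Zfp668 and Zfp646 sharing a 1450 bp peak, and 15 housekeeping genes at 3, Ppia, Gusb and Actb. Of 15 immediate-early genes, which respond to stimuli within minutes, Jund, Ier2 and Junb had one of 200 bp each. Lower shares were found at 42 of 1101 olfactory receptor genes (3.81%), 11 of 352 vomeronasal receptor genes (3.13%) and 3 of 57 clustered protocadherin genes (5.26%). Both receptor groups are short, with median lengths of 0.949 and 0.960 kb against 17.5 kb for all genes. The windows at their 2 ends therefore overlap and cover less sequence, as do those of the histone genes (0.496 kb). Expression was not measured here. None of 39 Hox genes had one, while 4 (10.3%) had a Polycomb-only IgG peak, as had 1183 of all protein-coding genes (5.72%). An IgG peak that meets a Polycomb mark peak leaves the unmarked class by the selection. The absence of unmarked peaks at Hox genes is therefore not a result apart from it. Of 13 neutrophil granule genes, 3 had an H3K4me1-marked IgG peak and 1, Mpo, an unmarked peak. That peak, 2600 bp wide (chr11:87804501-87807100), begins just past the end of the myeloperoxidase gene. The classes are split by H3K4me1 itself, which Mpo, Elane and Prtn3 had in or near the gene in all 10 libraries. This split is thus in part the selection, and it rests on few genes. With start-site windows in place of both gene ends, unmarked peaks met 11 of 61 ribosomal protein genes (18.03%), 11 of 62 histone genes (17.7%), 10 of 69 mitochondrial ribosome genes (14.5%), 3 of 935 olfactory receptor genes (0.321%) and 1070 of all 16437 genes with a window (6.51%). The median window had 58.7% GC in both ribosomal groups, 45.7% in histone genes, 35.0% in olfactory receptor genes and 57.0% in all genes; the part of GC content in these shares was not tested.

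**Figure D4:**
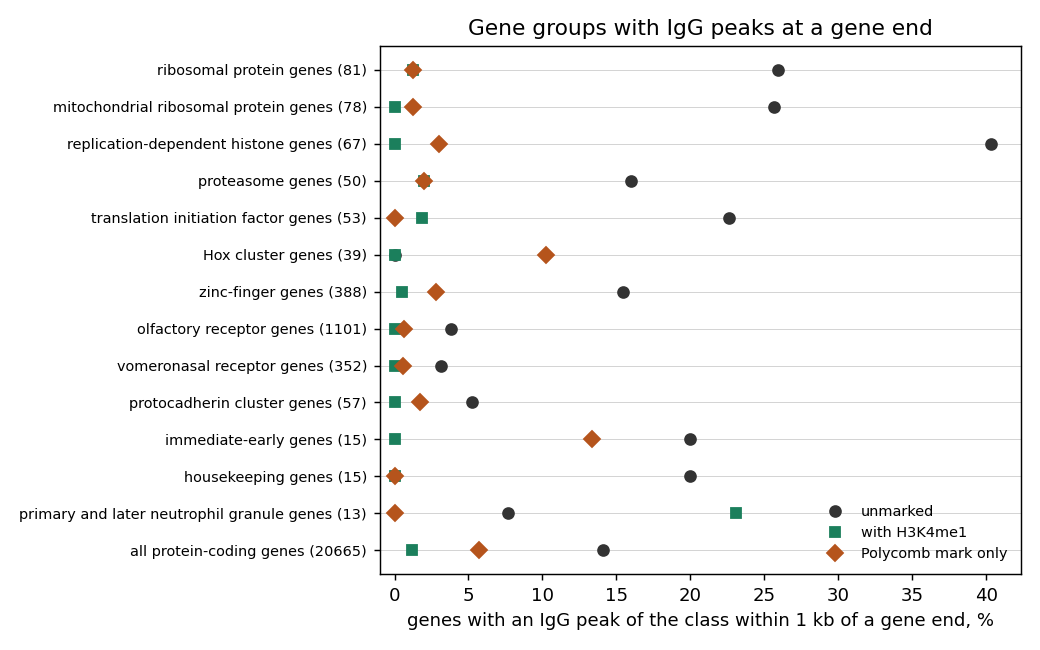
Share of genes (%) with an IgG peak of each class within 1 kb of a gene end, for 13 gene groups and all protein-coding genes (number of genes in brackets). Histone genes stand at 40.3% for unmarked peaks against 14.1% of all genes, and Hox genes at 0. Neutrophil granule genes are the row where the share with H3K4me1 (23.1%) exceeds the unmarked share (7.69%). Mark overlap sets the class of a peak, so the split between classes in a row is in part the selection.

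Unmarked peaks close to start sites had H3K4me1 nearby more often than unmarked peaks far from them. Of the 1416 with a midpoint within 500 bp of a start site, 411 (29.0%) had an H3K4me1 peak of any library within 5 kb, and 104 (7.34%) had one on each side. Of the 35588 more than 5 kb from every start site, 8.57% had one within 5 kb. The same share over all start sites was not computed, so whether these peaks differ from start sites at large was not tested. H3K27me3 ran the other way, with 13.8% at start sites and 21.6% away from them, and H2AK119ub was 25.9% and 22.3%. The distance to H3K4me1 differed widely between promoters of similar function: it was 0.45 kb from the peak at Rpl14, 2.45 kb at Rpl37, 4.85 kb at Rps21, 120 kb at Mrpl17 and 320 kb at Rps12. In each of the 10 H3K4me1 libraries taken alone, more of the start-site peaks than of all unmarked peaks were within 5 kb. The shares were 13.4% to 21.0% (median 17.8%) against 3.91% to 6.33% (median 5.40%). For H2AK119ub the order differed between libraries. Asxl1 guide libraries had the lower share at start sites, 2.75% against 3.44%, 2.75% against 3.73% and 4.31% against 5.91%. So did double libraries, 13.7% against 14.8% and 8.26% against 10.8%. Control libraries had the higher share there, 7.42% against 6.40% and 7.84% against 6.52%. So did CSF3R T618I libraries, 7.42% against 5.64%, 12.99% against 9.62% and 13.3% against 11.2%. This split was not tested.

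Most unmarked peaks stood alone. They numbered 17.7 per Mb with a median gap of 27.5 kb, and 25269 (59.5%) had no other unmarked peak within 10 kb. The 17219 that did (40.5%) compare with 29.8% for independent, even placement at this density. Within 2 kb the excess was small, with 7.28% against 6.83%. Within 100 kb the values were 95.1% and 97.1%, where even placement leaves almost no room for an excess. In 1 Mb bins the variance of the count was 8.47 times the mean, so placement was uneven at that larger scale. For IgG peaks with H3K4me1, 26.2% had another of their class within 10 kb, where their far lower density (1.24 per Mb) would give 2.44% by the same formula, and for Polycomb-only peaks the values were 35.3% and 5.96%. Sets of neighbours within 10 kb formed 6809 clusters, of which 358 had at least 5 peaks and held 2136 peaks (5.03%).

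The 5 largest clusters lay in different surroundings. The first, 19 peaks in 87.2 kb (chr15:74263551-74350700), holds no protein-coding gene, and the nearest is Adgrb1, an adhesion receptor gene 165 kb away. The second, 15 peaks in 81.9 kb (chr1:192471351-192553250), spans parts of Kcnh1, a potassium channel gene, and Hhat, whose product acylates Hedgehog proteins. The third, 14 peaks of at most 450 bp (chr1:182837301-182911700), lies at Susd4, a complement regulator, with 2 marked IgG peaks among them. The next had 13 peaks at Rps6ka2, a ribosomal S6 kinase gene (chr17:7248401-7315800). The fifth, 13 peaks in 48.2 kb (chr7:59731001-59779200), lies in the imprinted noncoding gene Snhg14 over 19 snoRNA genes, and includes a 4800 bp peak. Of these, 4 held no other IgG peak inside.

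Of the 10 widest unmarked peaks, 5 lay outside every annotated gene. The widest of all spans 21050 bp (chr7:64466751-64487800) and is followed after a short gap by one of 7550 bp (chr7:64488901-64496450); Apba2, a synaptic adaptor gene, is the nearest protein-coding gene at 13.8 and 5.11 kb. The second widest, 8150 bp (chr3:3000251-3008400), starts where the first peak of any list on chromosome 3 starts, 500 kb from Hnf4g, and the third, 7850 bp (chr10:3109351-3117200), does so on chromosome 10. Flg2, an epidermal barrier gene, holds a 5300 bp peak, and Ccdc91 one of 4850 bp. The other 4 of the 10 widest, of 5050 to 6950 bp on chromosomes 8 and 12, lie in or nearest to predicted genes with Gm symbols. Of these 10, the closest to any H3K4me1 peak was 5.45 kb away and the farthest 2404 kb.

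The single genes with most unmarked peaks were long genes. Within the gene or 1 kb of it, Cacna1c, a voltage-gated calcium channel, had 52, which is 8.52 per 100 kb against 1.77 over the autosomes, and no IgG peak with H3K4me1. Dlgap2, a postsynaptic scaffold, had 45, Agap1, a regulator of membrane traffic, 41, Ptprn2 and Sorcs2 40 each, Slit3, an axon guidance ligand, 39, and Asic2, an ion channel, and Prdm16, a transcription regulator, 37 each. Zfp423, a zinc-finger transcription factor, had 36 in 300.2 kb, the highest density of the 10 at 11.99 per 100 kb, and Rbfox3, a neuronal splicing factor, had 35, level with Kalrn, Shank2 and Cdh13. Among the 10 named by rule, Agap1 was the one with many H3K4me1-marked IgG peaks, 9, while Sorcs2 and Asic2 had 1 each and the other 7 had 0. In all, 8810 of 20665 protein-coding genes (42.6%) had at least 1 unmarked peak, and 353 had 10 or more. Genes of at least 100 kb, 2313 in number, had a median of 1.78 per 100 kb. The 10 named genes were chosen for their counts, so their densities are a description.

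Over chromosomes, the density of unmarked peaks ranged from 12.5 per Mb on chromosome 3 to 21.2 on chromosome 11, and the share of IgG peaks that were unmarked from 76.1% on chromosome 1 to 85.5% on chromosome 13. Across the 19 autosomes, the density of unmarked peaks ran with that of mark peaks per Mb and library (Pearson's r = 0.75, Spearman's rho = 0.76) and less closely with that of protein-coding genes (r = 0.53, rho = 0.51); these describe chromosomes of the same libraries and have no p.

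The mark libraries differed in how far they met the IgG list. A single H3K4me1 library met 2.89% to 4.15% of autosomal IgG peaks (median 3.61%), an H3K27me3 library 1.25% to 6.82% (3.11%) and an H2AK119ub library 2.54% to 6.71% (3.93%). Relative to the share of the autosomes that the library covered, the share of IgG base pairs in its peaks was 1.71 to 2.45 times for H3K4me1, 2.75 to 5.71 times for H3K27me3 and 4.31 to 6.30 times for H2AK119ub, so every H3K4me1 library lay below every library of the other marks. For nearness of the unmarked peaks the marks overlapped. Their share within 5 kb of an H3K4me1 peak was 0.76 to 0.85 times the autosomal share within 5 kb, below 1 in 10 of 10 libraries, against 0.69 to 1.36 times for H3K27me3 and 0.94 to 1.38 times for H2AK119ub. Since peaks overlapping a mark were left out of the members, a value below 1 is in part the selection.

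Across genotypes, the H2AK119ub libraries showed the largest differences. In the control libraries 6.40% and 6.52% of unmarked IgG peaks lay within 5 kb of an H2AK119ub peak, and with the Asxl1 guide 3.44%, 3.73% and 5.91%. CSF3R T618I libraries had 5.64%, 9.62% and 11.2%, and double libraries 14.8% and 10.8%. The Asxl1 guide libraries were all below both controls and the double libraries above them, while the CSF3R T618I group reached from below the controls to above one double library. Averaged over the 2 guide backgrounds, CSF3R T618I came with 5.40 percentage points more (exact permutation within guide groups, 2-sided, p = 0.04, adjusted p = 0.24 by Benjamini-Hochberg over 12 tests), which does not pass at 0.05. The selection used overlap with these same mark lists, so none of the 12 tests, on nearness or on overlap, is independent of it. The share of IgG peaks overlapped gave 3.81% and 4.05% in controls, 2.54%, 2.79% and 3.37% with the Asxl1 guide, 3.73%, 5.25% and 5.68% with CSF3R T618I, and 6.71% and 4.89% in double libraries, an effect of 1.93 points (exact permutation p = 0.04, adjusted p = 0.24). Covered length moved with both, at 19.7 and 20.9 Mb in controls, 11.7 to 16.6 Mb with the Asxl1 guide, 18.6 to 28.3 Mb with CSF3R T618I and 22.5 and 39.0 Mb in double libraries. Taken relative to covered length, the overlap effect turned to a log2 difference of -0.17 (exact permutation p = 0.10) and, relative to the share of the autosomes within 5 kb of a peak of the library, the nearness effect was a log2 difference of 0.24 (exact permutation p = 0.08).

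**Figure D5:**
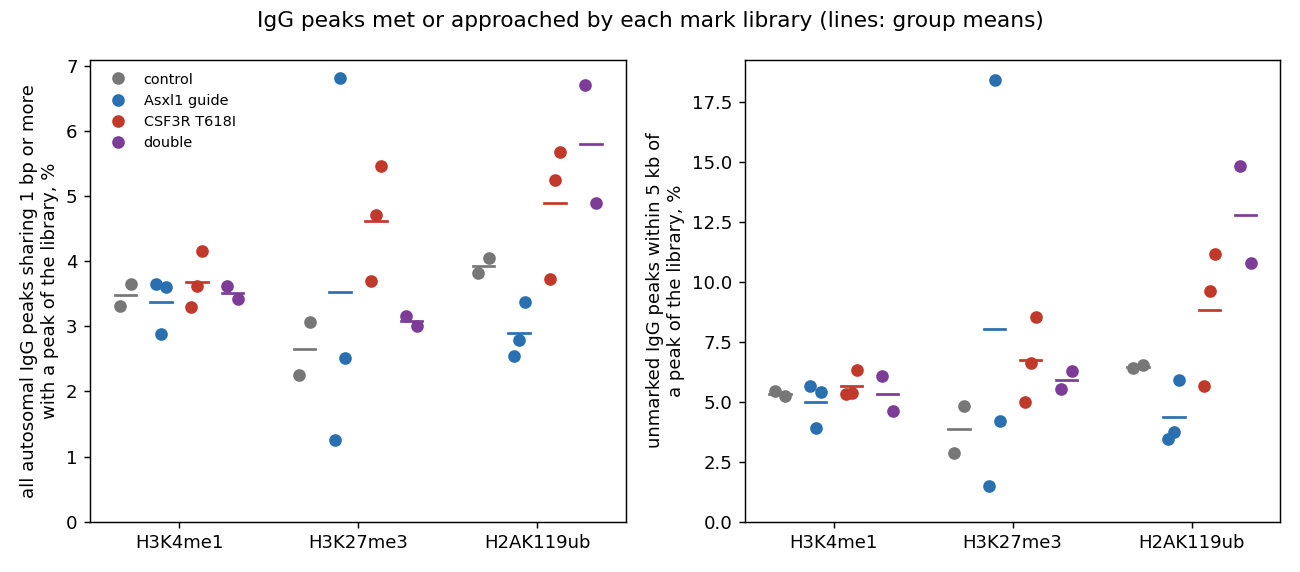
Left, share of autosomal IgG peaks (%) overlapped by each mark library, and right, share of unmarked IgG peaks (%) within 5 kb of a peak of the library; each point is a library, coloured by genotype, and lines are group means. H3K4me1 libraries lie within 2.89% to 4.15% on the left in all genotypes, H2AK119ub spreads from 2.54% to 6.71%, and 1 H3K27me3 library with the Asxl1 guide stands at 18.4% on the right.

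For H3K4me1 the groups overlapped. Unmarked peaks within 5 kb made up 5.46% and 5.23% in controls, 5.67%, 3.91% and 5.43% with the Asxl1 guide, 5.31%, 5.37% and 6.33% with CSF3R T618I, and 6.09% and 4.60% in double libraries. For H3K27me3, the Asxl1 guide group held both the lowest and the highest library, at 1.499%, 18.4% and 4.199%, around 2.88% and 4.81% in controls, 5.01%, 6.61% and 8.55% with CSF3R T618I, and 5.52% and 6.27% in double libraries. The library at 18.4% also had the longest covered length, 52.6 Mb, and the one at 1.499% the shortest, 4.72 Mb; whether covered length accounts for this was not tested. The 10 other tests of the family, guide effects on all marks and CSF3R effects on H3K4me1 and H3K27me3, gave exact permutation p from 0.47 to 0.97, with adjusted p of 0.97 each. The smallest p of these exact permutation tests is 0.01, so with 12 tests a single effect cannot pass after adjustment unless others are small too.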

How the data were processed

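The authors deposited 31 lists of peak positions in bp, an other kind of value than counts: 30 mark libraries and 1 list from 2 merged IgG libraries. Per the submitters' processing notes, Bowtie2 2.4.1, deepTools 3.5 and mm10 were used; the peak caller is not given in the sources used here. All deposited peak widths are multiples of 50 bp, from 200 bp.

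An autosomal IgG peak sharing at least 1 bp with a mark peak of any library was marked. Positions use peak midpoints, RefSeq GRCm38.p6 genes (20665 protein-coding, without strand) and 31360 start sites with strand. A cluster joins unmarked peaks at most 10 kb apart. For each genotype factor, its labels were permuted exactly among libraries alike in the second factor (100 arrangements, 2-sided), with Benjamini-Hochberg adjustment over 12 tests; the interval and permutation code was tested on simulated data. Scripts ran in Python 3.11.15 with pandas 2.3.3, numpy 2.4.6, matplotlib 3.10.9 and scipy 1.17.1.

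Members and gene lists were chosen with earlier results of these data known. Named were the 10 genes with most peaks, the 10 widest peaks, genes at the 5 largest clusters, up to 4 genes of each list by peak width, and up to 6 promoters covered most; Gm and Rik symbols were left out of the gene ranks. Start sites, width ranges, flanking marks, removal of clusters and the gene-list alternatives were added after seeing the data. Other alternatives were 2 libraries for a mark, a 1 kb gap, wider peaks, other distances, covered length, a replicate block and leaving out each library.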

Additional observations from a re-analysis of the deposited data

Results flagged for a closer look

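Sex chromosomes lay outside the selection, and the X chromosome held 1022 unmarked IgG peaks of 1113 IgG peaks (91.8%). Their density was 6.10 per Mb, below the 12.5 per Mb of the sparsest autosome, and their median width was 250 bp. The Y chromosome had 18 IgG peaks, 3 of them unmarked. The labels used here do not give the sex of the line, and the difference between X and autosomes was not tested. Groups had 2 or 3 libraries, too few for a check of single libraries against their group.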

How the results depend on the processing

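Depth is unknown for every library, so a missing overlap cannot be told from a mark peak missed in a shallow library, and 1 merged IgG list gives no replicate spread. Leaving out any 1 of the 30 mark libraries kept 42488 to 43309 unmarked peaks, the median width difference of -50 bp to peaks with H3K4me1, and the differences in share at gene ends (-1.29 to -1.01 points), inside genes (-12.4 to -11.6) and with a neighbour within 10 kb (14.0 to 15.1). With IgG peaks of at least 400 bp only, 7325 were unmarked, the gene-end difference reversed from -1.20 to 0.47 points, the difference inside genes was -7.55 and that for neighbours 6.34. The gene-end difference was -9.28 points within 5 kb, -2.75 over all genes and -3.68 where a mark peak within 1 kb counted, which also gave -14.2 inside genes; inside or within 5 kb it was -16.4. The neighbour difference was 0.55 within 2 kb and 30.8 within 100 kb. All these neighbour differences are raw and compare classes of 17.7 and 1.24 peaks per Mb, so their sign follows class density in part. Even placement at those densities would give 29.8% and 2.44% within 10 kb, where 40.5% and 26.2% were found. Of the 7 gene groups recomputed, olfactory receptor genes moved, from -10.3 points against all genes to -7.23 with the 1 kb gap and -11.5 with 2 libraries for a mark; all kept their side.

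Relative to covered length (log2), effects on overlap reversed for the guide in H3K4me1 (0.12), H3K27me3 (0.41) and H2AK119ub (0.076) and for CSF3R in H3K4me1 (-0.085), H3K27me3 (-0.081) and H2AK119ub (-0.17). Relative to the autosomal share within 5 kb (log2), effects on nearness reversed for CSF3R in H3K4me1 (-0.026) and the guide in H2AK119ub (-0.061). Libraries of different genotype that shared a number met no more of the same IgG peaks than those with different numbers (mean Jaccard index 0.43 and 0.44 for H2AK119ub). The index depends on how many IgG peaks each library met, so it cannot decide whether the numbers pair the libraries. A replicate block turned the guide effect on overlap to 0.13 for H3K27me3 and 0.020 for H2AK119ub and the CSF3R effect on nearness to -1.05 for H3K27me3, and gave CSF3R effects on H2AK119ub of 1.85 and 5.20 points (exact permutation p = 0.25 each); with 16 arrangements the block cannot reach 0.05, so its p says nothing on stability.

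Leaving out 1 library, effects on overlap ranged, for the guide, over -0.24 to -0.02 (H3K4me1), -1.16 to 0.23 (H3K27me3) and -0.52 to 0.39 points (H2AK119ub), and for CSF3R over 0.05 to 0.27, 0.19 to 1.58 and 1.47 to 2.38. Effects on nearness ranged, for the guide, over -0.71 to 0.040, -0.91 to 3.32 and -0.067 to 1.96, and for CSF3R over -0.040 to 0.71, -1.27 to 2.96 and 4.39 to 6.42. The guide effect on nearness to H3K27me3 fell below 0 only without the Asxl1 guide library that covered 52.6 Mb. The cause of these changes was not tested.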

Other observations

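Small RNA genes were met by unmarked IgG peaks to different degrees; for comparison, 0.633% of autosomal base pairs lie in an unmarked peak and 4.14% within 1 kb of one. Of 1286 snoRNA genes, whose products guide modification of other RNAs, 38 (2.95%) were overlapped and 136 (10.6%) had an unmarked peak within 1 kb, against 0 and 3 for IgG peaks with H3K4me1. Part of these are the repeated snoRNA copies of the Snhg14 locus and the Snord116 family, so they are not separate loci. Unmarked peaks cover 15.2 Mb and IgG peaks with H3K4me1 1.35 Mb, so raw counts of the 2 classes, here and below, are not on an equal footing. Unmarked peaks overlapped 10 of 391 tRNA genes (2.56%) and peaks with H3K4me1 another 4, and they overlapped 8 of 931 snRNA genes (0.859%, near the share of base pairs), among them Rnu3b2, Rnu3b3 and Rnu12. Among 1136 miRNA genes, 18 (1.58%) lay under an unmarked peak, including the neighbours Mir23b, Mir27b, Mir3074-1 and Mir24-1, and Mir431 and Mir410 of the imprinted Dlk1-Dio3 region. None of 61 rRNA genes of the table was overlapped by an unmarked peak, and 1, Rn4.5s, by a Polycomb-only peak. These genes were chosen for mention after their values were seen.

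In 1 Mb bins, the number of unmarked peaks had a median of 15, with 5% of the 2391 bins at 3 or fewer and 5% at 41 or more, and 6 bins were empty. The variance was 8.47 times the mean. The fullest bin, on chromosome 5 (35023351 to 36023350), held 94, and the bin that follows it held 67.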
